A study of Mus musculus with 6 samples.

Results

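The autophagy machinery genes are 39 mouse genes, chosen as a list by what their proteins do and matched to the array through the accession of each probe. All 39 had a probe. All 39 were also among the 23851 of 44911 genes and unnamed transcripts that were tested. A gene was tested where every array of either group (or of both) gave a signal well above background. RNA came from NIH3T3, an established mouse embryonic fibroblast line, grown in 2% serum. GGCT-OE cells carried a retroviral pCX4bsr vector that expresses GGCT (gamma-glutamylcyclotransferase, an enzyme of glutathione turnover) and control cells carried the same vector empty. Each group had 3 arrays, 1 from each of 3 experiments that the study calls independent. Whether each experiment was a new infection, and whether the cells were a pool or a clone, is not stated by the labels. The comparison asks how GGCT overexpression changes gene expression.

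Macroautophagy encloses cytoplasm in a double membrane, the autophagosome, which then fuses with the lysosome. The ULK1 kinase complex starts the process, and a lipid kinase complex marks the site of formation. Lipid transfer proteins enlarge the membrane, and a ubiquitin-like conjugation system attaches ATG8 proteins to it, where receptors dock their cargo. TFEB and TFE3 are transcription factors known for activating lysosomal and autophagy genes.

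Array values below are log2 of the processed signal minus that array's 75th percentile, so 0 is the level of the 75th-percentile probe, and each difference is GGCT-OE minus control. A gene was called where limma's adjusted p was under 0.05 over all 23851 tested. Ggct itself read -0.14, 0.20 and -0.16 on the GGCT-OE arrays and -0.57, -0.72 and -0.66 on the control arrays. It was 1.53-fold higher in GGCT-OE cells (adjusted p = 0.0111, limma); the species of the expressed sequence is not given, so its mouse probe may not measure the vector. All 11 fibroblast markers looked at were well above background on all 6 arrays. Their summed linear level, relative to the 75th percentile, was 1569 to 1955 in GGCT-OE cells and 2029 to 2461 in control cells. Epcam and Cdh1 (epithelium), Ptprc and Adgre1 (leukocytes), Kdr and Tek (endothelium) and Myog, Adipoq and Plin1 (muscle and fat) were above background on no array. Of the other lists, 1 of 6 epithelial markers (Krt8), 4 of 7 leukocyte markers, 1 of 5 endothelial markers (Pecam1) and 1 of 6 muscle and fat markers (Acta1) were above background on every array. The summed level was 0.268 to 0.371 in GGCT-OE cells and 0.195 to 0.224 in control cells for the epithelial list. It was 24.8 to 31.1 in GGCT-OE cells and 24.9 to 34.3 in control cells for the leukocyte list. It was 0.243 to 0.288 in GGCT-OE cells and 0.181 to 0.215 in control cells for the endothelial list. It was 0.165 to 0.286 in GGCT-OE cells and 1.53 to 2.05 in control cells for the muscle and fat list. The part of these marker differences in the results below was not tested.

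GGCT-OE cells had lower RNA for 14 of the 39 autophagy genes, higher RNA for 6, and no call for 19. The 6 include Optn, which was not above background on any control array. The falls were led by the cargo receptor Sqstm1, the conjugation enzyme Atg10, the lipid-binding protein gene Wdr45 and the ATG8 gene Gabarap. The largest rise among genes measured in both groups was that of Ulk1. Among all 23851 genes and unnamed transcripts tested, 17.3% were called lower and 17.5% higher. The 35.9% of members called lower stood above that share, and the 15.4% called higher stood near it. All 39 members are named genes, while this share and those below also count unnamed transcripts. The share over all 14157 named genes together was not computed. By chromosome, named genes called lower ran from 10.5% (chromosome 10) to 43.2% (chromosome 15). Because of the unnamed transcripts, 17.3% is not a like-for-like share for the members. Of the 39 differences, 28 were negative. The median difference over the 39 was -0.15, against 0.02 over all genes tested and -0.02 over the named genes tested. Within experiments 1, 2 and 3 the median over the 39 was -0.16, -0.20 and -0.13. The 3 arrays of each group did not overlap for 25 members (64.1%), against 49.4% of all genes tested. Falls of at least 1.5-fold were called for 7 members (17.9%), against 10.4% of all genes tested, and a rise of that size for 1 member, against 10.3%; that member is Optn, set against control values not above background. In these bulk samples, less RNA per cell cannot be told apart from fewer cells that carry it.

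**Figure D1:**
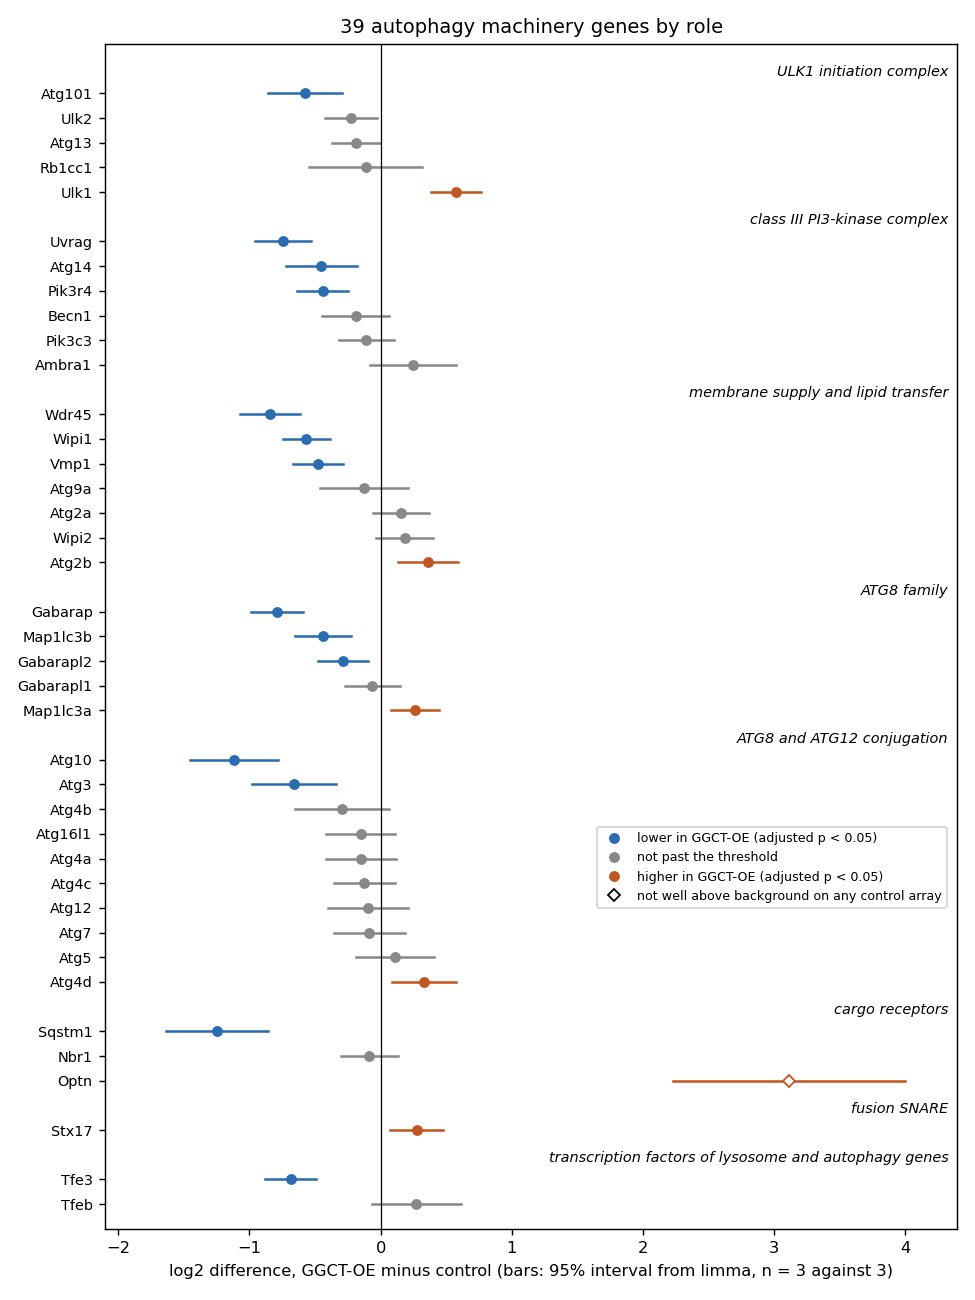
Difference of each of the 39 members, GGCT-OE minus control on the log2 scale, ordered by role, with 95% confidence intervals from limma; 0 is no difference. Sqstm1 at -1.25 and Atg10 at -1.12 lie furthest below 0, and Optn, drawn as an open diamond because it was not above background in control cells, lies at 3.11.

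The promoter windows of 4 members are given because they bracket the result. Sqstm1 had the largest fall, Ulk1 the largest rise among members measured in both groups, and Atg3 and Atg14 are the members called lower whose window holds an E-box. RefSeq windows (build GRCm38.p6) hold 250 bases before and 50 after the transcription start. They were found for 33 of the 39. The motifs searched on both strands were CACGTG (an E-box), TCACGTGA (the core of the element that TFEB and TFE3 bind, which contains CACGTG) and TGATGNAA (the core of the element that ATF4 binds with its partners). Capitals mark the matches. The windows are Sqstm1 at chr11:50210771-50211070 (minus strand), Ulk1 at chr5:110810032-110810331 (minus strand), Atg3 at chr16:45158579-45158878 (plus strand) and Atg14 at chr14:47568385-47568684 (minus strand), each printed in the direction of transcription.
Sqstm1: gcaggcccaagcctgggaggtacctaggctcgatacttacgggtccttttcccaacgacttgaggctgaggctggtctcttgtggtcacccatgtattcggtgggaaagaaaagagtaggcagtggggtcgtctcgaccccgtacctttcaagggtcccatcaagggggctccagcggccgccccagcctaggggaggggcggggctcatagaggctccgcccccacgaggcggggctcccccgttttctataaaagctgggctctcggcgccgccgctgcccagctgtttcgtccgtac
Ulk1: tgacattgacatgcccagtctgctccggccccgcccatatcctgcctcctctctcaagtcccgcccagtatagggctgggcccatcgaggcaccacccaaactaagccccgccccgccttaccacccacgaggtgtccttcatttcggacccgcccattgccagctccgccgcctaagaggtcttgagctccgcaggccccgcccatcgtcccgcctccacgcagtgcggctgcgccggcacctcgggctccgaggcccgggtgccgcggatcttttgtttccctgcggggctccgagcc
Atg3: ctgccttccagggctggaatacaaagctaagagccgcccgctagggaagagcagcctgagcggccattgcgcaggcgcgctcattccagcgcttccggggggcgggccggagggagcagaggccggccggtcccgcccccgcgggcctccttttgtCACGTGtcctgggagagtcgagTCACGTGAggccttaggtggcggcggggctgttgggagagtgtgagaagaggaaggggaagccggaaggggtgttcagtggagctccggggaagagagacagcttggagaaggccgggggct
Atg14: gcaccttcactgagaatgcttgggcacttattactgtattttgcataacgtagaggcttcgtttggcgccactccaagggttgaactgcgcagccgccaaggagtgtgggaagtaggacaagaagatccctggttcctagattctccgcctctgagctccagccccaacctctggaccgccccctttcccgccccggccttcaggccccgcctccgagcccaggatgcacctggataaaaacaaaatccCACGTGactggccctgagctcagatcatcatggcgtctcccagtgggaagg
Atg3 was the only one of the 33 with TCACGTGA (3.03%, against 1.12% of the 27025 genes with a window), 72 bases before the start. It has a further CACGTG 94 bases before the start. CACGTG was in 4 of 33 members, against 2187 of the 27025 genes (8.09%). The 4 were Atg3, Atg14, Atg5 and Atg7. TGATGNAA was in 0 of 33 (against 4.51% of all genes). A match here is a run of letters and not a measured site.

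In the ULK1 initiation complex, 1 of 5 members rose, 1 fell and 3 were not called. These shares (20% each) lie near those over all genes tested, 17.5% higher and 17.3% lower. Ulk1, the kinase that starts autophagosome formation, read 3.88, 3.93 and 3.80 in GGCT-OE cells and 3.30, 3.29 and 3.29 in control cells. Every GGCT-OE array stood above every control array. The rise was 1.49-fold (0.57 ± 0.08 SE, adjusted p = 0.0028, limma), and a second Ulk1 probe gave 0.62. Atg101, which holds the complex together by binding ATG13, read 2.51, 2.46 and 2.38 in GGCT-OE cells and 3.24, 2.93 and 2.91 in control cells. Its groups did not overlap, and it fell 1.49-fold (-0.58 ± 0.12, adjusted p = 0.0116, limma). Ulk2, the paralogous kinase, had a difference of -0.22 (adjusted p = 0.0772, or 0.0236 with the experiment as a block), opposite in sign to Ulk1. Atg13, the regulatory subunit, had a difference of -0.19 (adjusted p = 0.106, or 0.0445 with the block). Rb1cc1, the scaffold also called FIP200, differed by -0.11 with a 95% interval of -0.55 to 0.32.

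The class III PI3-kinase complex makes the phosphoinositide that recruits later factors, and 3 of its 6 members fell while none rose. Uvrag, a subunit of the form that acts on endosomes and on autophagosome maturation, read 1.96, 2.14 and 1.97 in GGCT-OE cells and 2.76, 2.81 and 2.72 in control cells. The groups were separate, and the fall was 1.67-fold (-0.74 ± 0.09, adjusted p = 0.00179, limma). Pik3r4, the regulatory kinase subunit, read 0.87, 0.95 and 1.00 in GGCT-OE cells and 1.39, 1.33 and 1.44 in control cells. It fell 1.36-fold (-0.44 ± 0.08, adjusted p = 0.00848, limma), with no overlap. Atg14, which directs the complex to the site of autophagosome formation, read 0.09, -0.15 and 0.04 in GGCT-OE cells and 0.59, 0.32 and 0.42 in control cells. All 3 GGCT-OE arrays were lower, and the fall was 1.37-fold (-0.45 ± 0.11, adjusted p = 0.0245, limma). Pik3c3, the catalytic subunit, differed by -0.11 (adjusted p = 0.38). Becn1, the core subunit Beclin 1, differed by -0.45 on the slide that holds experiment 1 and by -0.06 on the slide that holds the other experiments (adjusted p = 0.21 over all 6 arrays). Ambra1, a Beclin 1 partner, differed by 0.25 (adjusted p = 0.209, or 0.0243 with the block).

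Of the 7 genes for membrane supply and lipid transfer, 3 fell, 1 rose and 3 were not called. Of the 3 PROPPIN genes here, whose proteins bind the lipid made by the kinase above, 2 fell and 1 was not called. Wdr45, also called WIPI4, read 1.74, 1.49 and 1.57 in GGCT-OE cells and 2.49, 2.40 and 2.42 in control cells. Wdr45 fell 1.79-fold with no overlap (-0.84 ± 0.10, adjusted p = 0.00151, limma), and its second probe gave -0.81. Wipi1 read 2.78, 2.82 and 2.87 in GGCT-OE cells and 3.39, 3.38 and 3.40 in control cells. That was a 1.48-fold fall (-0.57 ± 0.07, adjusted p = 0.00248, limma), again without overlap. A second Wipi1 probe gave -0.49 and missed the threshold (adjusted p = 0.0581). Wipi2, which recruits ATG16L1, differed by 0.18 (adjusted p = 0.165). Vmp1, an endoplasmic reticulum scramblase, read 3.89, 3.85 and 3.81 in GGCT-OE cells and 4.38, 4.25 and 4.36 in control cells. Its groups were separate, with a 1.39-fold fall (-0.48 ± 0.08, adjusted p = 0.00609, limma), and a second probe gave -0.43, also called. Atg2b, a lipid transfer protein, read -0.35, -0.40 and -0.37 in GGCT-OE cells and -0.59, -0.85 and -0.77 in control cells. On this brightest probe Atg2b rose 1.28-fold (0.36 ± 0.09, adjusted p = 0.029, limma). Its other probes gave -0.25 and 0.19 with no call, so the probes disagree in sign. The mean over Atg2b probes differed by 0.10 (adjusted p = 0.801, limma). Its paralogue Atg2a differed by 0.16 (adjusted p = 0.217) and Atg9a, a scramblase on the vesicles that seed the membrane, by -0.13 (adjusted p = 0.525).

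ATG8 proteins coat the growing membrane and bind receptors, and 3 of these 5 genes fell while 1 rose. Gabarap read 5.92, 5.77 and 5.84 in GGCT-OE cells and 6.66, 6.57 and 6.66 in control cells. It fell 1.73-fold, with the groups far apart (-0.79 ± 0.08, adjusted p = 0.00113, limma). Map1lc3b, the LC3 form most used as an autophagosome marker, read 5.26, 5.16 and 5.06 in GGCT-OE cells and 5.66, 5.56 and 5.58 in control cells. It fell 1.36-fold without overlap (-0.44 ± 0.09, adjusted p = 0.0113, limma). Its second probe gave -0.55 and missed the threshold (adjusted p = 0.0516). Gabarapl2, also called GATE-16, read 4.48, 4.47 and 4.41 in GGCT-OE cells and 4.77, 4.67 and 4.79 in control cells. Its fall was 1.22-fold (-0.29 ± 0.08, adjusted p = 0.0335, limma), and a second probe gave -0.27 with no call (adjusted p = 0.116). Map1lc3a read 2.09, 2.12 and 2.18 in GGCT-OE cells and 1.86, 1.90 and 1.85 in control cells, a 1.20-fold rise (0.26 ± 0.08, adjusted p = 0.0398, limma). Gabarapl1 differed by -0.06, with a 95% interval of -0.27 to 0.15, and its groups overlapped. Cross-hybridisation between probes of these related genes was not tested.

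**Figure D2:**
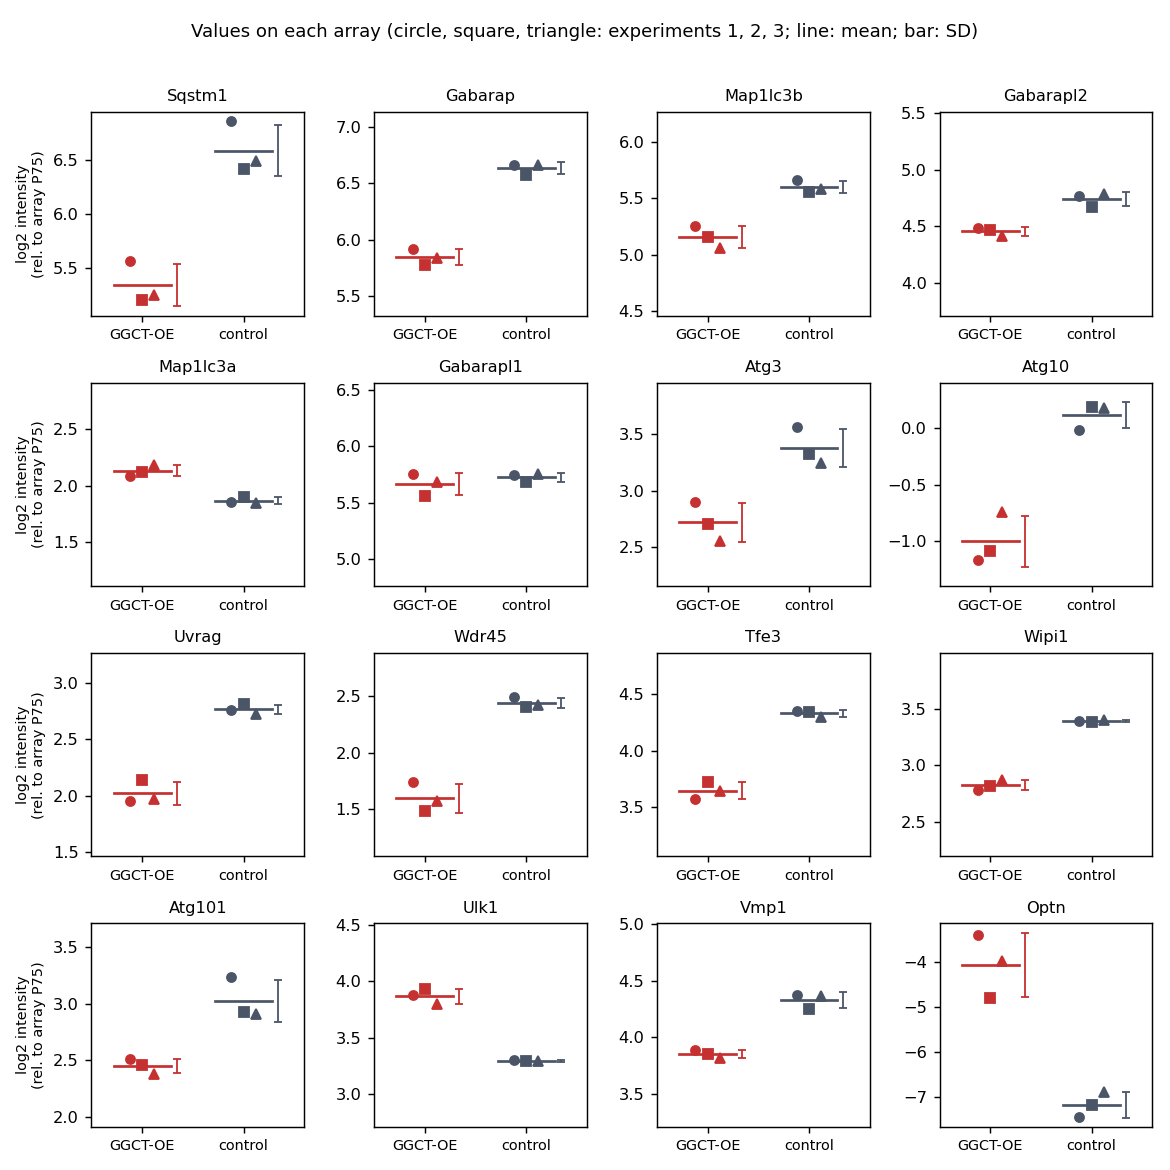
Value on each of the 6 arrays for 16 members, as log2 signal relative to the array's 75th percentile, with GGCT-OE arrays left of control arrays, a line at the mean and a bar for the SD (n = 3); the vertical scale differs between genes. All but Gabarapl1 were called. In Sqstm1 the GGCT-OE arrays sit at 5.20 to 5.56 and the control arrays at 6.41 to 6.85.

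The conjugation system attaches ATG8 proteins to lipid and ATG12 to ATG5, and 2 of its 10 genes fell, 1 rose and 7 were not called. The 20% called lower lies near the 17.3% over all genes tested, and the 10% called higher lies below the 17.5%. Atg10, the E2-like enzyme for ATG12, read -1.17, -1.09 and -0.75 in GGCT-OE cells and -0.02, 0.19 and 0.18 in control cells. It fell 2.17-fold with no overlap (-1.12 ± 0.14, adjusted p = 0.00212, limma), and its second probe also gave -1.12. Atg3, the E2-like enzyme for ATG8 proteins, read 2.90, 2.71 and 2.56 in GGCT-OE cells and 3.57, 3.33 and 3.25 in control cells. It fell 1.58-fold, and its arrays did not overlap either (-0.66 ± 0.13, adjusted p = 0.0116, limma). Both E2-like enzymes fell, while Atg7, the E1-like enzyme that serves both, differed by -0.09 with an interval of -0.36 to 0.18. The other parts of the ATG12 conjugate were not called, with differences of -0.10 for Atg12, 0.11 for Atg5 and -0.15 for Atg16l1. Among the ATG4 proteases, which trim ATG8 proteins, Atg4d read 1.80, 1.81 and 1.63 in GGCT-OE cells and 1.55, 1.35 and 1.35 in control cells. It rose 1.26-fold without overlap (0.33 ± 0.10, adjusted p = 0.0476, limma). Atg4a, Atg4b and Atg4c differed by -0.15, -0.29 and -0.12, none of them called, though Atg4b had an adjusted p of 0.0192 with the experiment as a block (limma).

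Of the 3 cargo receptors, 1 fell, 1 rose and 1 was not called. Sqstm1 encodes p62, which links ubiquitin-tagged cargo to ATG8 proteins. It read 5.56, 5.20 and 5.25 in GGCT-OE cells and 6.85, 6.41 and 6.49 in control cells. The groups were separate by more than the range within either, and the fall was 2.37-fold (-1.25 ± 0.16, adjusted p = 0.00241, limma). A second Sqstm1 probe gave -1.36. Optn, a ubiquitin-binding receptor that acts in mitophagy, was a dim probe that read -3.40, -4.81 and -3.98 in GGCT-OE cells and -7.46, -7.19 and -6.89 in control cells. It was well above background on all 3 GGCT-OE arrays and on 0 control arrays, so it entered the test only through the GGCT-OE group. In the main processing, against the lowest signal measured above background, it was at least 1.77-fold higher in GGCT-OE cells. The adjusted p of 0.00173 (limma) belongs to the fitted difference from control values not above background and does not test that bound. With another background correction its log2 difference was 0.43, smaller than that bound, and the call was lost (adjusted p = 0.0608, limma). Its other probe was above background on 1 GGCT-OE array and 0 control arrays. Nbr1, a receptor related to p62, differed by -0.08 (adjusted p = 0.524).

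Stx17, the SNARE that fuses the finished autophagosome with the lysosome, read 0.36, 0.35 and 0.43 in GGCT-OE cells and 0.01, 0.14 and 0.16 in control cells. It rose 1.21-fold without overlap (0.28 ± 0.08, adjusted p = 0.0461, limma). A second Stx17 probe gave 0.26 and was not called (adjusted p = 0.112). Tfe3 read 3.57, 3.72 and 3.64 in GGCT-OE cells and 4.35, 4.34 and 4.30 in control cells. That was a 1.61-fold fall with the groups well apart (-0.68 ± 0.08, adjusted p = 0.00175, limma). The other Tfe3 probe was not above background on any array, so the fall rests on the brighter probe alone. Tfeb read -1.82, -2.21 and -2.16 in GGCT-OE cells and -2.16, -2.42 and -2.43 in control cells. Its groups overlapped, and its difference of 0.27 was called only with the block (adjusted p = 0.188 without it, 0.0203 with it, limma). The arrays measure RNA, so neither the proteins nor autophagic flux was read.

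All 20 called members differed in the same direction on both slides. Their groups did not overlap, which fixes that outcome, so it is no separate check. Of the 14 lower genes, 11 stayed called whichever single array was left out. The exceptions were Atg101, lost without GGCT-OE array 3 (adjusted p = 0.0506), Atg14, lost without GGCT-OE array 2 or 3 or control array 1 or 3 (adjusted p up to 0.0785), and Gabarapl2, lost without each of the 6 arrays in turn (0.0611 to 0.136). Of the 5 higher genes measured in both groups, Ulk1 stayed called without any single array. Map1lc3a and Stx17 were lost in all 6 leave-outs, and Atg2b and Atg4d in every one but that without control array 1 (adjusted p up to 0.148, 0.15, 0.109 and 0.163 in that order). With no filter on dim probes, where more genes were tested, Atg101, Atg14, Pik3r4, Gabarapl2, Map1lc3b and Atg3 were no longer called lower, nor Atg2b, Map1lc3a, Atg4d and Stx17 higher (limma). With experiment 3 left out, leaving 2 arrays a group, Atg10 was the only lower gene still called (adjusted p = 0.0288), and Ulk1 was not called (adjusted p = 0.0763, limma). In that run 1091 of 24977 genes tested were called lower, so the 39 members showed no excess of lower calls. Without experiment 2 the lower genes still called were Uvrag, Wdr45, Gabarap, Sqstm1 and Tfe3, and Ulk1 had an adjusted p of 0.0587 (limma). There, 1643 of 24172 genes tested were called lower. For single genes taken alone, the exact 2-sided permutation test of 3 against 3 arrays cannot go below 0.1, which the members without overlap reached.

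Many genes around some members also differed. For each tested gene the median difference of up to 25 tested genes on each side was taken, in RefSeq gene order. Over 14158 genes the middle 90% of these medians ran from -0.33 to 0.23. All 14 lower members had a negative neighbour median, against 3 of the 6 higher members and 9 of the 19 not called. For 4 of the 14 lower members this median was below the middle 90%. They were Tfe3 (-0.61, with 25 of 41 neighbours called lower), Wdr45 (-0.59, 22 of 38), Atg14 (-0.50, 29 of 50) and Atg10 (-0.34, 21 of 50). Tfe3 and Wdr45 are both on the X chromosome and share neighbours. Atg14 was no further from 0 than the median of its neighbours, while the other 13 lower members were. So were all 6 higher members and 13 of the 19 not called. Called genes are picked for their distance from 0, so this count is no separate check. Tfe3, Wdr45 and Atg10 minus their neighbours were -0.08, -0.26 and -0.77. Sqstm1 and Gabarap, both on chromosome 11, had neighbour medians of -0.04 and -0.0031. Atg4a, also on the X chromosome and not called, lay among genes with a median of 0.46 (25 called higher and 7 lower). Of the 6 higher members, 0 lay beyond the middle 90%. By whole chromosome, chosen after the values were seen, the median differences of chromosomes 13, 14, 15 and 16 were -0.28, -0.20, -0.28 and -0.23, with 36.7% to 43.2% of genes called lower. The 4 members on those chromosomes (Atg10, Atg14, Atg101 and Atg3) were all called lower, against 10 of the 35 elsewhere. The part of chromosome position in these results was not tested.

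**Figure D3:**
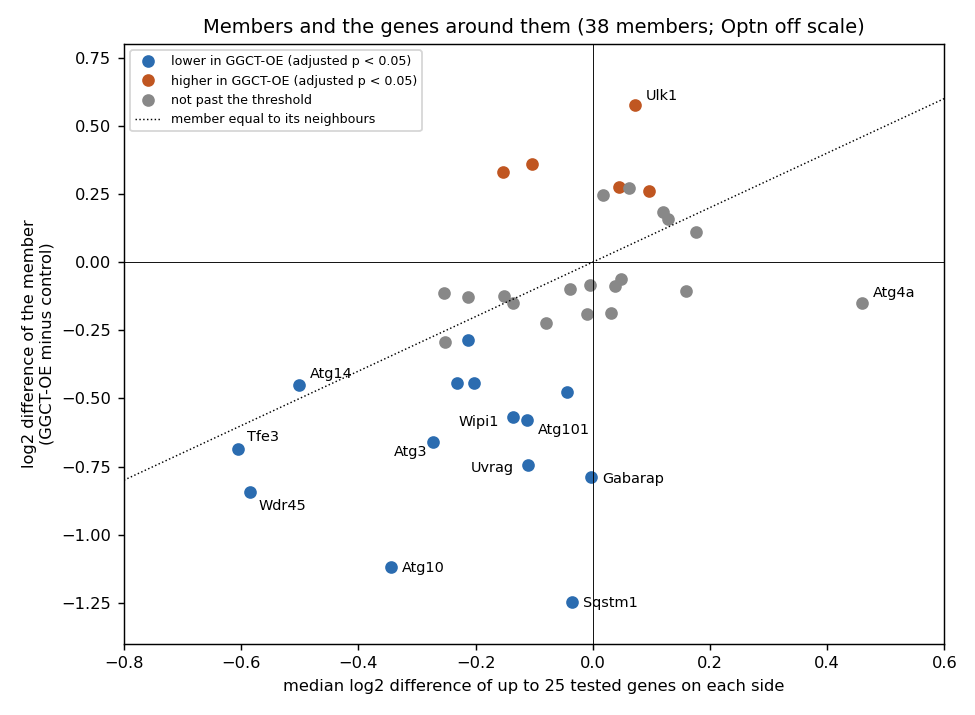
Difference of each member (vertical axis, log2, GGCT-OE minus control) against the median difference of its neighbouring tested genes (horizontal axis, log2), for 38 members without Optn; the dotted line marks members equal to their neighbours. Tfe3, Wdr45 and Atg14 lie furthest left, with neighbour medians of -0.61, -0.59 and -0.50, and Sqstm1 lies at -1.25 with a neighbour median of -0.04.

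Genes next to the machinery in the pathway were read from the same fit. Of 125 such genes in 6 lists, 120 were tested, of which 52 were lower and 10 higher, with a median difference of -0.26. That is 43.3% lower and 8.33% higher. Over all genes tested, unnamed transcripts included, 17.3% were lower and 17.5% higher. Lysosomal genes, which digest what autophagosomes deliver, were called lower for 17 of 29 members (58.6%) and called higher for 0, with a median of -0.46. They included Atp6v0d1, a proton pump subunit (2.07-fold lower, adjusted p = 0.000692), and Tpp1, a peptidase (1.72-fold lower, adjusted p = 0.000785, both limma). Of 16 genes for fusion with the lysosome, 8 fell and 2 rose. The falls included Plekhm1, an adaptor between ATG8 proteins and the tether (1.56-fold, second probe not called), Vps33a, a tether subunit (1.38-fold), and Snap29, the SNARE partner of Stx17 (1.45-fold). Snap29 thus fell where Stx17 rose.

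Of 27 tested regulators in the mTORC1 and AMPK pathways, which set ULK1 activity, 10 fell (37%) and 3 rose (11.1%). The shares over all genes tested were 17.3% lower and 17.5% higher. Flcn and Rragc, which act together in amino acid signalling at the lysosome, fell 1.73-fold and 1.71-fold (adjusted p = 0.00542 and 0.00206, limma), and Sesn3, a sestrin that restrains mTORC1, fell 1.54-fold. Of 18 other cargo and mitophagy receptors, 7 fell and 2 rose. Ncoa4, the receptor for ferritin, fell 1.66-fold (adjusted p = 0.00113, limma). The paralogous mitophagy receptors Bnip3 and Bnip3l moved in opposite directions, with Bnip3 1.54-fold higher and Bnip3l 1.44-fold lower (adjusted p = 0.00519 and 0.00623, limma).

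Of 17 tested further genes of autophagosome formation, 2 rose and 4 fell (23.5%), with a median of -0.03. With so few genes, that share is no clear excess over the 17.3% of all genes tested. Atg9b, the paralogue of Atg9a, read 0.69, 0.97 and 0.28 in GGCT-OE cells and -2.76, -2.55 and -2.74 in control cells. It was 10.03-fold higher in GGCT-OE cells with no overlap (adjusted p = 0.000128, limma). Its second probe was above background on 3 GGCT-OE and 0 control arrays, so it gives no measured difference. Rubcn, an inhibitor of the Uvrag form of the kinase complex, fell 1.75-fold as Uvrag did (adjusted p = 0.00121, limma). Trp53inp1, which binds ATG8 proteins, fell 1.67-fold. Of 13 tested other transcription regulators of autophagy genes, 6 fell and 1 rose. Mitf, of the same family as Tfe3, fell 2.32-fold, and the stress factors Ddit3 and Atf4 fell 2.79-fold and 1.91-fold (adjusted p = 0.000992, 0.00138 and 0.00049, limma).

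**Figure D4:**
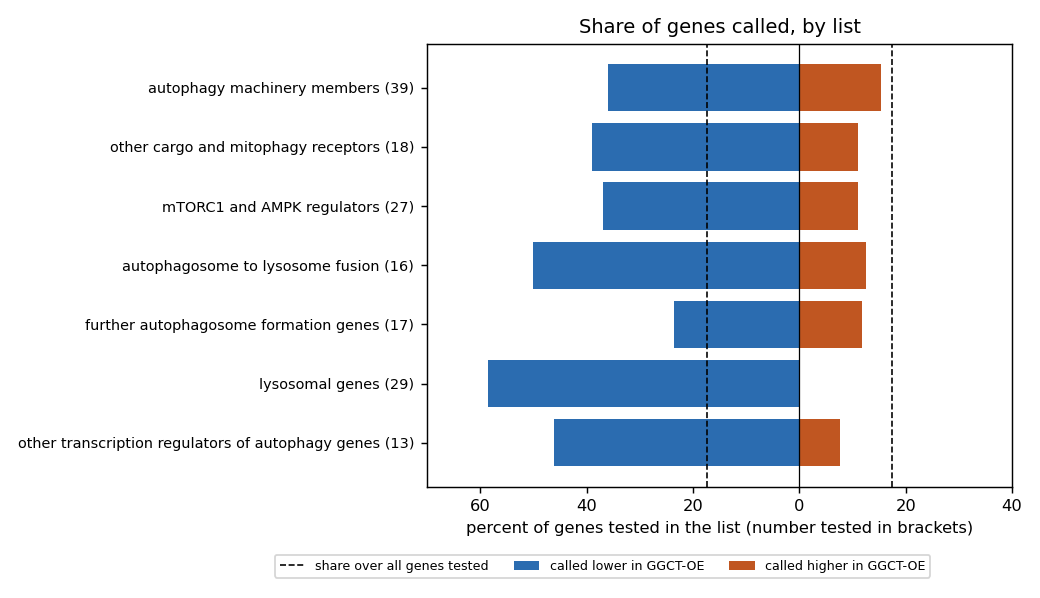
Percent of the tested genes of each list that were called lower (bars to the left of 0) or higher (bars to the right) in GGCT-OE cells, with the number tested in brackets; dashed lines are the shares over all genes tested, 17.3% lower and 17.5% higher. Every bar for lower genes reaches past its dashed line, from 23.5% (4 of 17 genes) to 58.6%, and no bar for higher genes does. The dashed lines also count unnamed transcripts, which the lists do not hold, so a bar near its line is no clear excess.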

How the data were processed

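Total RNA was labelled with Cy3 and hybridised to 6 one-colour Agilent arrays. Per the file headers, Feature Extraction 12.1.0.3 made the deposited intensity values, already background-subtracted, on 62976 spots an array. A deposited table of log2 values was compared on probes with a processed signal above 200 (17347 to 18547 an array). There it equals the log2 processed signal minus a constant per array (r = 1). Dimmer probes were not compared in this way. The scale of the table is log2, genes were not centred, and column medians ran from -3.87 to -3.69. Control spots (3671 an array) and outlier spots (578 in all) were dropped and spots of a probe averaged. Of 56570 probes used, 34541 were named through RefSeq accessions and 54.6% to 61.6% were well above background on each array; 0 were saturated. The number of arrays limits the precision.

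Log2 intensity minus the array's 75th percentile (a signal of 380 to 470.1) was fitted with limma 3.58.1 (R 4.3.3) on all 6 arrays, 2-sided, without a block, with Benjamini-Hochberg adjustment. Each gene was read from its brightest probe; 19 members had several. Text names all 39 members, Ggct and up to 3 genes a neighbouring list by smallest p, of which 1 is not reported here. The members and lists were chosen with earlier results of these data known. Fits were tested on simulated data with independent noise on each array. That setting lacks the shared deviations described next, so it does not test the fit under them. Replicate numbers in the titles pair the samples. Same-numbered arrays deviated together (correlations across genes 0.73, 0.45 and 0.36). Unlike-numbered arrays of experiments 2 and 3 did so nearly as much (0.34 and 0.30), so these values hardly separate those experiments. Experiment 1 lies on a slide and scan of its own for both groups. The alternatives tried were 19 distinct fits, plus every probe on its own, added after seeing the data. RefSeq tables (GRCm38.p6) gave names, gene order and promoters; the array's own coordinates were not used here.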

Additional observations from a re-analysis of the deposited data

How the results depend on the processing

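No called member changed sign under the 19 distinct alternatives (of 20 listed, leaving out experiment 1 and using slide 2 alone are the same run). Rb1cc1, not called, turned to 0.02 with the mean of its probes and without control array 1. Over the members' differences, 645 values kept their side of the threshold, 85 lost a call and 10 gained one. With every probe tested on its own, added after seeing the data, the brightest probes kept their calls, while other probes of Wipi1, Gabarapl2, Map1lc3b, Stx17 and Atg2b were not called. With no filter on dim probes, 2228 genes were called higher and 2498 lower (main 4179 and 4115), with 2 members higher and 8 lower and 4 neighbouring-list genes higher and 32 lower (main 10 and 52). With the replicate block the counts were 6515 higher and 6211 lower, with 8 members higher and 17 lower and 16 list genes higher; with the slide as a block they were 6585 and 6207, again with 16 list genes higher. The block added Atg13, Ulk2, Ambra1, Atg4b and Tfeb and ended no member's call. Leaving out 1 array or 1 experiment gave 697 to 4589 genes higher, 1091 to 4549 lower, 1 to 4 members higher, 1 to 13 members lower, a member median of -0.20 to -0.13, and 1 to 12 list genes higher and 6 to 54 lower. These runs hold fewer samples. Other scalings and background corrections gave a median of all genes between -0.02 and 0.03, and gave 4 to 6 members higher and 13 or 14 lower. The cause of these changes was not tested beyond the smaller number of samples or the larger number of genes tested that a setting itself brings. Dim probes limit Optn to a bound, which holds for the main processing only. Background correction used median signals because the mean signal was not among the columns used. Identity between the ATG8 proteins was planned and not run, because no protein table was used here.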
